A study of Mus musculus with 12 samples.

Results

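The genotype by gemcitabine interaction was examined in all 12 libraries of a series on pancreatic ductal adenocarcinoma of KPC mice, for 24065 of the 52636 genes in the files. For each gene the interaction is the log2 fold change with gemcitabine in Cdh11 heterozygous mice minus the log2 fold change with gemcitabine in wild-type mice. A positive value means that the treated over untreated ratio was higher in heterozygous mice, and a value of 1 is a 2-fold difference between the ratios. The groups were untreated KPC/CDH11+/+ (wild-type), untreated KPC/CDH11+/- (heterozygous), gemcitabine-treated KPC/CDH11+/+ and gemcitabine-treated KPC/CDH11+/- mice, with 3 mice and 1 library per mouse in each of the 4 groups. All mice shared the KPC tumour model and a strain background labelled C57BL/6 and 129, so no group is free of tumour. The sources used here do not state the alleles and Cre driver of the KPC mice, their age and sex, or the dose and schedule of gemcitabine. Libraries are called WU, HU, WG and HG (W wild-type, H heterozygous, U untreated, G gemcitabine) followed by the mouse number. Group means in CPM (counts scaled to a common library size after TMM normalization) are given as mean ± SD over 3 mice, always in the order untreated wild-type, untreated heterozygous, treated wild-type, treated heterozygous.

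KPC mice are engineered to develop pancreatic tumours, which are rich in fibroblasts, matrix and myeloid cells. Cdh11 encodes cadherin 11, a calcium-dependent protein that joins neighbouring mesenchymal cells, fibroblasts among them, and is tied to actin through catenins. Gemcitabine is a deoxycytidine analogue that is phosphorylated inside cells, incorporated into DNA and blocks ribonucleotide reductase, and cytidine deaminase inactivates it. An interaction asks whether the drug moved a gene differently in the 2 genotypes, which is a separate question from whether the gene differed between genotypes or between treatments. In bulk tumour RNA, fewer cells of a type and less RNA per cell cannot be told apart.

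Depth ranged from 39388328 to 56559413 expected counts per library (median 45785246). Several libraries stood apart in the summed levels of gene lists. Summed islet markers reached 336 CPM in WU2, summed acinar markers 699 CPM in WU3, and summed intestine and stomach markers 2772 CPM in HU3. The summed interferon response genes reached 789.9 CPM in HU3 and 556 CPM in WG3, and plasma cell genes 2274 CPM in HG2 and 5035 CPM in HG3. Xist, which coats and silences 1 X chromosome in females, exceeded the summed Y-linked genes in 2 of 3 WU, 1 of 3 HU, 3 of 3 WG and 0 of 3 HG libraries, so sex chromosomes and genotype cannot be told apart in treated mice. The 4 RNA classes plotted by library also differed between groups. The signal recognition and 7SK RNAs (7SL and 7SK) took 5.53% to 7.87% of the counts in WU, 8.19% to 9.59% in HU, 8.28% to 8.61% in WG and 7.26% to 8.52% in HG libraries. Small nucleolar RNA took 0.206% to 0.234%, 0.367% to 0.502%, 0.267% to 0.43% and 0.305% to 0.371% in the same order.

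**Figure D1:**
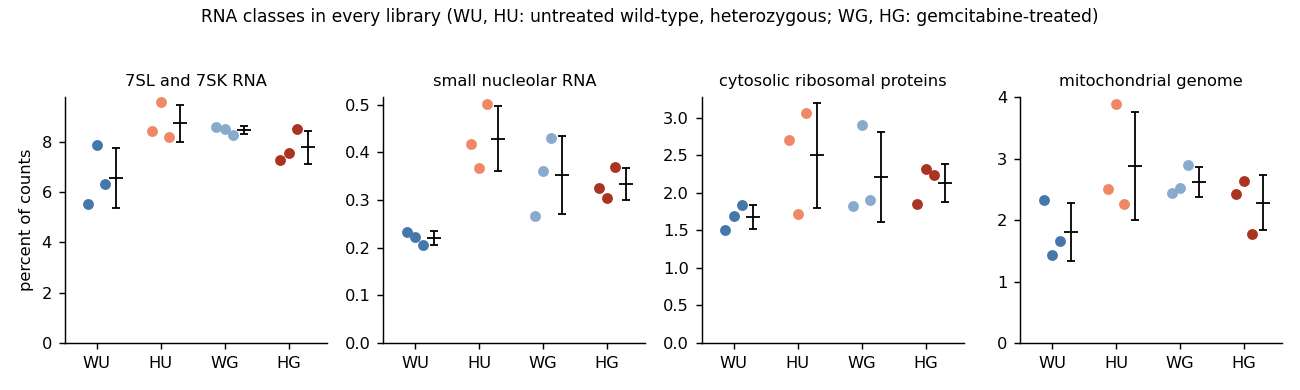
Share of counts (percent, y axis) taken by 4 RNA classes in each of the 12 libraries, grouped on the x axis by genotype and treatment; points are libraries and the bars to their right are mean ± SD over 3 mice. Small nucleolar RNA was lowest in the 3 untreated wild-type libraries (0.206% to 0.234%), which do not overlap any other group.

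Cdh11, on the minus strand of chromosome 8 (chr8:102632095-102785642, GRCm38), is the gene whose dose the genotype changes. Its level was 225, 283 and 165 CPM in the untreated wild-type libraries, 148, 115 and 73.7 in untreated heterozygous, 142, 62.2 and 123 in treated wild-type and 109, 141 and 72 in treated heterozygous libraries. The 3 untreated wild-type libraries lay above all the others, and the other 3 groups overlapped. The interaction was 0.98 ± 0.52 (SE, 95% interval -0.17 to 2.12), from a gemcitabine log2 fold change of -1.04 in wild-type and -0.07 in heterozygous mice, and did not pass the threshold (edgeR unadjusted p = 0.088, adjusted p = 0.476). Cdh11 did not separate the treated genotypes, which are called by their labels.

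Across all genes, 2 passed a Benjamini-Hochberg adjusted p of 0.05 in the interaction (edgeR quasi-likelihood test), 0.00831% of the 24065 tested. Both were positive, 0.00831% likewise, and 0 genes passed with a negative interaction, against 1328 negative genes at an unadjusted p under 0.05. DESeq2 passed 460 positive and 196 negative genes and limma voom 1 positive gene. The 2 genes have near-identical copies elsewhere in the genome. They are Gm10260 and BC023719, and were picked out after their values were seen, since the naming rule leaves out predicted genes and clones. Without HU1 the count was 7, without HU3 it was 4 and without WG1 it was 4.

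Gm10260, on the minus strand of chromosome 13 (chr13:97760072-97760632, GRCm38), is a copy of Rps18, which encodes a protein of the small ribosomal subunit. Their coding sequences are both 456 bases long, differ at 4 bases and are 99.1% identical. How reads were shared between these genes was not tested. The stretch of 120 bases that holds 3 of the 4 differences is shown for both. Both sequences are in the GENCODE M21 transcripts on GRCm38, 5′ to 3′, with the differing letters in capitals. Gm10260 lies at chr13:97760157-97760276, and the Rps18 stretch at chr17:33952070-33952291 is spread over exons, with the minus strand read in both.
Gm10260: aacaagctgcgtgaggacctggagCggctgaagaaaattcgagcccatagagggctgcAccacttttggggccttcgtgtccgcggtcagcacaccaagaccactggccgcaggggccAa
Rps18: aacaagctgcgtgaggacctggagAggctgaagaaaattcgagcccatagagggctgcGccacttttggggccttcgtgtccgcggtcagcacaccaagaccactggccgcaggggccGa

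Gm10260 was listed at 143, 206 and 123 CPM in untreated wild-type, 0.90, 0.929 and 1.51 in untreated heterozygous, 215, 466 and 188 in treated wild-type and 117, 111 and 121 in treated heterozygous libraries. The untreated heterozygous group alone was near 0, and the other 3 groups were all above 100 CPM in every library. Its interaction was 5.82 ± 0.52 (edgeR adjusted p = 0.0048), from gemcitabine effects of 0.88 in wild-type and 6.70 in heterozygous mice. Rps18 was highest where Gm10260 was near 0, at 21.2, 33.8 and 282 CPM, 612, 387 and 720.2 CPM, 27.2, 64.5 and 31.7 CPM and 252, 307 and 269 CPM in the same groups. The copy Gm11361 was at 121, 136 and 1.81 CPM in WU and 127, 309 and 121 CPM in WG libraries, and averaged 0.625 CPM in HU and 1.0 CPM in HG libraries. The copy Rps18-ps3 averaged 21.5, 0.644, 8.25 and 46 CPM. Within the family, counts were therefore on Rps18 in untreated heterozygous libraries and spread over Rps18, Gm10260 and the other copies elsewhere. The whole family summed to 378, 576, 524 and 439 CPM. Tested as 1 feature, the family had an interaction of -0.87 ± 0.49 (edgeR adjusted p = 0.507), opposite in sign to that of Gm10260 alone.

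**Figure D2:**
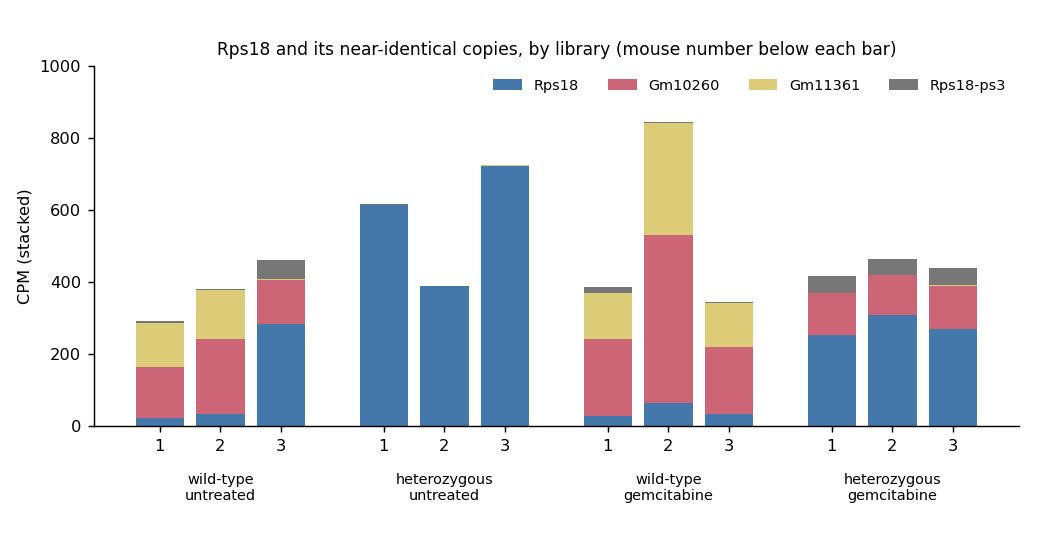
CPM (y axis, stacked bars from 0) of Rps18 and 3 near-identical copies in each of the 12 libraries, grouped by genotype and treatment with the mouse number below each bar. Gm10260 is at 0.90, 0.929 and 1.51 CPM in the untreated heterozygous libraries, where nearly the whole bar is Rps18, and takes a visible share of every other bar.

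BC023719 is annotated as an antisense gene of chromosome 17 (chr17:36111426-36117121, plus strand, GRCm38), and its transcript matches that of A930015D03Rik on the same chromosome at 96.4% identity over 871 bases. The following 120 bases of each transcript are from GENCODE M21 on GRCm38, 5′ to 3′, with the 5 letters that differ in capitals. They were chosen among stretches with at most 5 differing letters, and how reads were shared was not tested. BC023719 is at chr17:36116266-36116385 and A930015D03Rik at chr17:36037588-36037707, both on the plus strand.
BC023719: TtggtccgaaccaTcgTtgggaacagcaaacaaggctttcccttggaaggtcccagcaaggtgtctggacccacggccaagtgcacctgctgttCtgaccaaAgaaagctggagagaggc
A930015D03Rik: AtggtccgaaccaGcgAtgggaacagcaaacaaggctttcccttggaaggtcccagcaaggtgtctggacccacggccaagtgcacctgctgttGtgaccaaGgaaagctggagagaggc

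BC023719 had no count in any of the 3 untreated heterozygous libraries and was at 6.4, 5.33 and 3.08 CPM in untreated wild-type, 7.87, 5.86 and 5.03 in treated wild-type and 2.87, 2.68 and 2.71 in treated heterozygous libraries. Against a floor of 3 counts per library, treated heterozygous tumours were at least 43.4-fold higher than untreated heterozygous tumours, while treated wild-type tumours were 1.27-fold higher than untreated ones. The fitted interaction was 9.65 ± 0.77 (edgeR adjusted p = 0.0048). That value and its SE depend on the prior count and are no bound. Against the floor the interaction was at least 5.10 on the log2 scale. The copy A930015D03Rik averaged 2.86, 2.49, 3.2 and 1.76 CPM. Summed with its copy, BC023719 had an interaction of 0.58 ± 0.51 (edgeR adjusted p = 0.697), and by limma voom BC023719 alone did not pass (adjusted p = 0.0889). Neither call was kept with near-identical copies added. A930015D03Rik averaged no more in untreated heterozygous than in untreated wild-type libraries. Adding it lowers the interaction by construction, so the sum does not decide whether BC023719 itself changed. The sources used here do not say whether reads were counted by strand.

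Below an unadjusted p of 0.05 lay 3046 genes, 12.7% of those tested. Of these 1718 were positive (7.14%) and 1328 negative (5.52%), while 45.8% of all genes tested had an interaction above 0 and the median interaction of all genes was -0.07. Among these 3046 genes, 2786 (91.5%) had gemcitabine effects of opposite sign in the 2 genotypes and genotype effects of opposite sign in the 2 treatments, against 40.5% of all genes tested. Choosing genes by a large interaction favours that pattern, so the share is a description only. The 1718 positive genes had a median gemcitabine effect of -0.93 in wild-type and 0.96 in heterozygous mice, and a median genotype effect of -0.996 in untreated and 0.86 in treated mice. The 1328 negative genes had medians of 0.75 and -0.66 for gemcitabine and 0.85 and -0.54 for genotype. The group whose mean log2 CPM lay farthest from the other 3 was untreated wild-type for 506 of the 1718 positive genes, untreated heterozygous for 423, treated wild-type for 278 and treated heterozygous for 511. It was untreated wild-type for 515 of the 1328 negative genes, untreated heterozygous for 350, treated wild-type for 244 and treated heterozygous for 219. Over all genes tested the shares were 30.18% untreated wild-type, 25.32% untreated heterozygous, 21.45% treated wild-type and 23.04% treated heterozygous. In the same order they were 29.45%, 24.62%, 16.18% and 29.74% of the positive genes. Of the negative genes they were 38.78%, 26.36%, 18.37% and 16.49%. No single group therefore stood apart in most of the positive or of the negative genes. In 75 genes (0.312%) all 6 libraries of the untreated wild-type and treated heterozygous groups lay above all 6 of the others, and in 54 genes (0.224%) all 6 lay below. Of these, 71 and 50 had an unadjusted p under 0.05, so choosing genes by p favours this order. The share of counts on protein-coding genes had the same order without overlap, at 82.1% to 82.8% in WU and 80.4% to 82.1% in HG against 77.8% to 79.7% in HU and 78.2% to 79.3% in WG libraries, and its part in the interactions was not tested. With the Xist state as a covariate, 1730 genes in place of 3046 reached the unadjusted p, and 2206 did without WU2.

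Over the 24065 genes the gemcitabine effects in the 2 genotypes, which share no library, had a Pearson correlation of -0.21 and a Spearman correlation of -0.21. The genotype effects in the 2 treatments, which also share no library, had a Pearson correlation of 0.079 and a Spearman correlation of -0.115. These are given as a description across genes, which are not independent replicates and share each library's depth and composition.

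**Figure D3:**
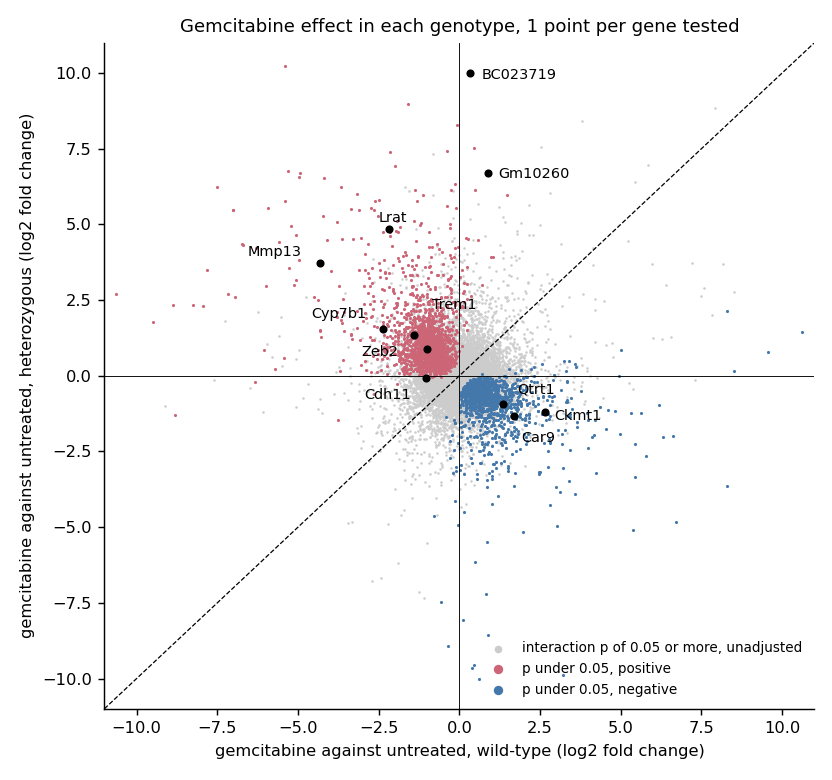
Log2 fold change with gemcitabine in wild-type (x axis) and heterozygous mice (y axis), 1 point per gene tested, with the 2 genes beyond ±11 left out. The dashed line marks equal effects, and the genes at an unadjusted interaction p under 0.05 lie mostly in the upper left (positive) and lower right (negative), where the effects have opposite signs.

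Among genes the rule names, Lrat, Cyp7b1 and Naalad2 had the smallest p-values with a positive interaction. None of the 24 genes that the rule names by their p-value passed the adjusted threshold, and their edgeR adjusted p lay between 0.106 and 0.252. Lrat (chr3:82892579-82903973 on the minus strand), the enzyme by which stellate cells store retinol as esters, was at 7.28, 8.81 and 9.84 CPM in untreated wild-type, 0, 0.173 and 0.119 in untreated heterozygous, 1.49, 1.79 and 2.47 in treated wild-type and 1.78, 2.54 and 4.31 in treated heterozygous libraries. Lrat was thus highest in the 3 untreated wild-type libraries and lowest, at 0, 8 and 6 counts, in the 3 untreated heterozygous ones, while the treated groups overlapped. Its interaction was 7.01 ± 0.97 (edgeR adjusted p = 0.106), from gemcitabine effects of -2.17 in wild-type and 4.84 in heterozygous mice. It passed by edgeR without HU1 (edgeR adjusted p = 0.00992) and with no filter on low counts (edgeR adjusted p = 0.0210), and over the fits with 1 library left out its adjusted p ranged from 0.00992 to 0.352. Cyp7b1, an oxysterol hydroxylase, was at 18.1, 36.1 and 12.8 CPM, 3.56, 4.19 and 2.12 CPM, 4.63, 4.62 and 3.79 CPM and 10.7, 6.71 and 11.1 CPM in the 4 groups. All 6 untreated wild-type and treated heterozygous libraries of Cyp7b1 lay above the other 6, and its interaction was 3.89 ± 0.57 (edgeR adjusted p = 0.124). Naalad2, a peptidase of the glutamate carboxypeptidase family, had the same order of groups with little spread, at 20.6 ± 5.08, 7.82 ± 1.51, 9.89 ± 1.52 and 17.3 ± 1.16 CPM (interaction 2.21 ± 0.34, edgeR adjusted p = 0.135).

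The other 9 positive genes of this set all had an edgeR adjusted p of 0.252. Trem1, an activating receptor of neutrophils and monocytes, averaged 16.9 ± 4.21, 9.08 ± 3.89, 6.38 ± 1.51 and 23.3 ± 3.78 CPM and was highest in the treated heterozygous group. Selplg, the selectin ligand that leukocytes use to roll on endothelium, averaged 18.9 ± 9.28, 11.3 ± 1.57, 8.1 ± 2.38 and 29.9 ± 8.15 CPM. Syk, a kinase of immune receptor signalling, averaged 86.7 ± 22, 53.1 ± 5.61, 45.3 ± 2.08 and 89.9 ± 22.4 CPM, with 45.1, 47.5 and 43.3 CPM in the treated wild-type libraries. Zeb2, a transcription factor of mesenchymal and myeloid cells, averaged 227 ± 59.5, 104 ± 24.7, 113 ± 28.3 and 191 ± 28 CPM. Their interactions were 2.76 ± 0.47, 2.63 ± 0.49, 1.69 ± 0.32 and 1.89 ± 0.37. Fgf10, a mesenchymal growth factor, averaged 2.39 ± 1.08, 0.486 ± 0.228, 0.899 ± 0.168 and 2.15 ± 0.625 CPM, and Ap1s2, a subunit of a clathrin adaptor, 95.9 ± 11.8, 39.9 ± 13, 42 ± 10.6 and 69.8 ± 12 CPM. Their interactions were 3.55 ± 0.64 and 2.00 ± 0.37. In Cyp7b1, Naalad2, Fgf10, Ap1s2, Selplg, Syk and Zeb2 the untreated wild-type and treated heterozygous libraries did not overlap the other 6. That order held in 0.312% of all genes tested, and choosing genes by a small p favours it. Ms4a4b, a membrane protein of T cells, averaged 4.03 ± 1.3, 0.934 ± 0.166, 1.63 ± 0.535 and 4.89 ± 2.89 CPM (interaction 3.68 ± 0.72). The transcription factors Dach1 and Bhlhe22 were lowest in the untreated heterozygous group, at 1.81 ± 0.21, 0.396 ± 0.0727, 1.37 ± 0.325 and 1.51 ± 0.159 CPM and 6.09 ± 2.84, 0.749 ± 0.373, 1.71 ± 0.677 and 2.53 ± 0.465 CPM (interactions 2.32 ± 0.45 and 3.58 ± 0.70).

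Among negative interactions Qtrt1, Ckmt1 and Eif3g had the smallest p-values. Qtrt1 (chr9:21411837-21420274), the catalytic subunit of the enzyme that places queuine in tRNA, was at 11.2, 9.22 and 8.91 CPM in untreated wild-type, 23.7, 26 and 26.6 in untreated heterozygous, 22.3, 20.3 and 32.6 in treated wild-type and 10.7, 15.1 and 13.9 in treated heterozygous libraries. The 6 untreated heterozygous and treated wild-type libraries of Qtrt1 lay above the other 6, and its interaction was -2.30 ± 0.32 (edgeR adjusted p = 0.106). Ckmt1, a mitochondrial creatine kinase, averaged 5.08 ± 0.838, 22.9 ± 7.95, 32 ± 20.5 and 9.91 ± 3.43 CPM (interaction -3.87 ± 0.68). Eif3g, a subunit of a translation initiation factor, averaged 36.7 ± 2.78, 71.8 ± 15.1, 62.3 ± 4.99 and 47.1 ± 5.09 CPM (interaction -1.37 ± 0.25). Car9, a carbonic anhydrase that hypoxia induces, was at 14, 6.85 and 21 CPM, 26.2, 50.3 and 28 CPM, 44.9, 51.6 and 39.2 CPM and 19.8, 11.6 and 9.83 CPM in the 4 groups (interaction -3.03 ± 0.59). In Ckmt1, Eif3g, Car9 and Slc25a10, as in Qtrt1, the 2 sets of 6 libraries did not overlap. Such an order held in 0.224% of all genes tested and is likewise favoured by choosing genes by p. Slc25a10, the mitochondrial dicarboxylate carrier, averaged 27.2 ± 5.96, 56.2 ± 14.7, 43.6 ± 4.76 and 32.9 ± 1.95 CPM (interaction -1.45 ± 0.32).

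The remaining 7 negative genes of this set also had an edgeR adjusted p of 0.252. Tjp3, a tight junction scaffold, averaged 22.6 ± 7.61, 77 ± 17.8, 61.5 ± 26.6 and 35 ± 13.7 CPM, and Myo7b, a myosin of the brush border, 0.579 ± 0.32, 3.87 ± 3.67, 10.1 ± 7.31 and 0.946 ± 0.332 CPM. Their interactions were -2.58 ± 0.56 and -6.14 ± 1.35, and Myo7b ranged from 0.377 to 7.69 CPM within the untreated heterozygous group alone. Nr3c2, the mineralocorticoid receptor, averaged 9.94 ± 2.23, 30.2 ± 3.75, 18.4 ± 2.33 and 15.8 ± 5.86 CPM and was lowest and highest in the untreated groups (interaction -1.82 ± 0.40). Tspan15, a tetraspanin partner of the protease ADAM10, averaged 39.7 ± 16, 77.4 ± 21.2, 83.6 ± 54.3 and 24.9 ± 4.0 CPM (interaction -2.71 ± 0.60). Dnajc22, a co-chaperone, averaged 10.4 ± 3.35, 25.8 ± 8.05, 31.3 ± 3.45 and 14.7 ± 4.38 CPM, and Grin1, a subunit of the NMDA receptor, 1.35 ± 0.226, 5.81 ± 1.91, 4.14 ± 1.96 and 2.76 ± 0.537 CPM (interactions -2.40 ± 0.46 and -2.68 ± 0.55). Tmem266, a transmembrane protein, was near 0 in untreated wild-type libraries, at 0.176, 0.184 and 0.158 CPM, and averaged 0.173 ± 0.0137, 1.27 ± 0.864, 1.97 ± 0.697 and 0.591 ± 0.398 CPM (interaction -4.59 ± 0.89).

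**Figure D4:**
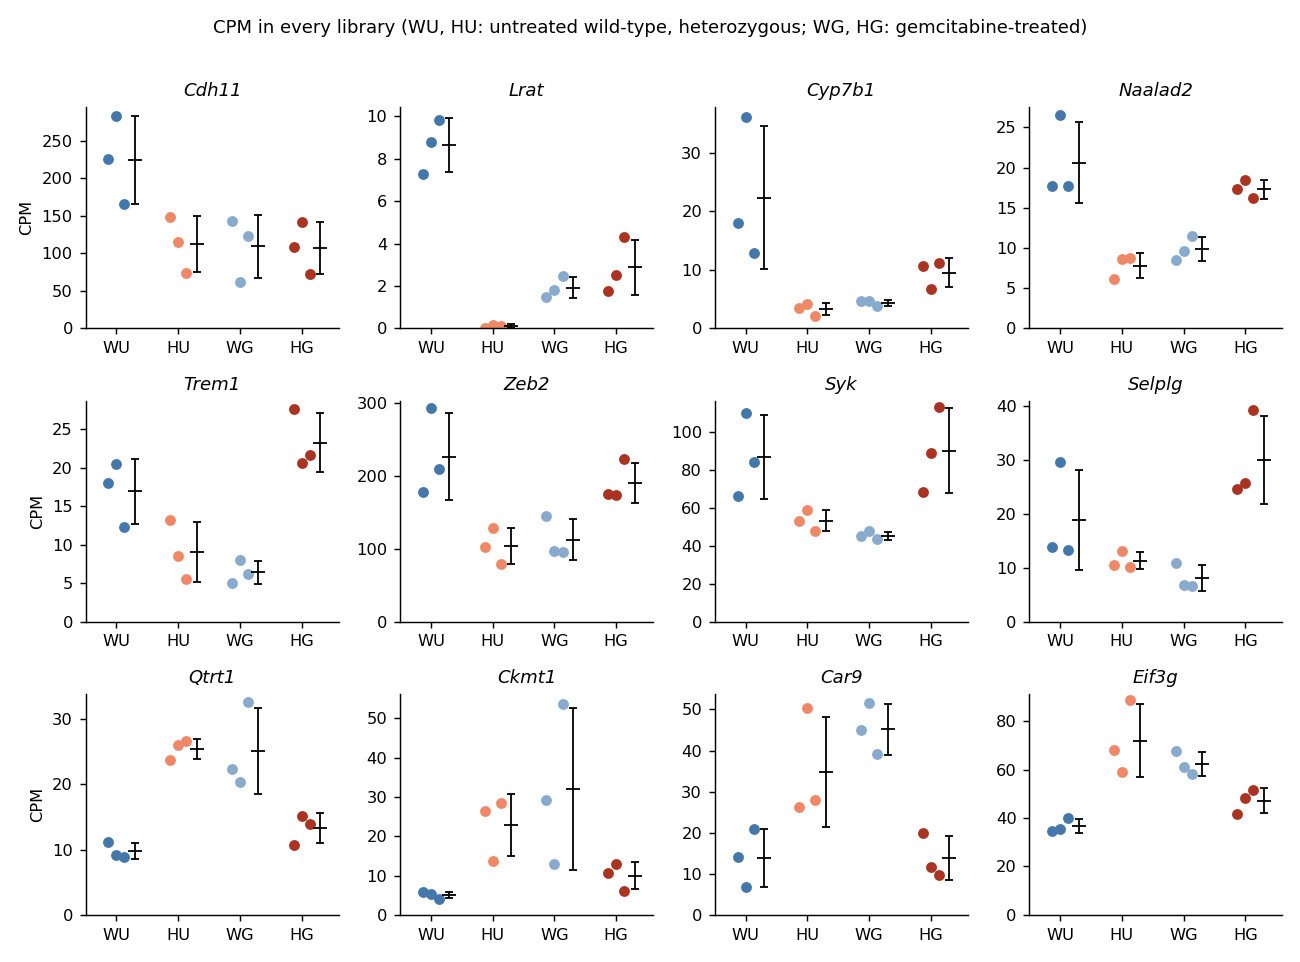
CPM (y axis, from 0) of Cdh11 and 11 genes with small interaction p-values in every library, by group on the x axis; points are libraries and the bars to their right are mean ± SD over 3 mice. Cyp7b1, Naalad2, Zeb2, Syk and Selplg were high in the untreated wild-type and treated heterozygous groups and low in the other 2, and Qtrt1, Ckmt1, Car9 and Eif3g were the reverse.

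The 10 most abundant genes with an unadjusted p under 0.01 had edgeR adjusted p-values between 0.252 and 0.276, and 7 of them had a positive interaction. Chil3, a chitinase-like protein secreted by macrophages, was at 1609, 1945 and 973 CPM in untreated wild-type, 253, 624 and 32.3 in untreated heterozygous, 729, 333 and 222 in treated wild-type and 1394, 375 and 4466 in treated heterozygous libraries. The treated heterozygous libraries of Chil3 spanned more than 10-fold, so the mean of that group is set mostly by HG3. C3, the central complement component, averaged 1342 ± 1229, 500.1 ± 206, 415 ± 185 and 1075 ± 292 CPM, with 2755 CPM in WU2. Mrc1, the mannose receptor of macrophages, averaged 494 ± 252, 182 ± 46.5, 281 ± 136 and 516 ± 259 CPM, and Axl, a receptor kinase that binds dying cells through Gas6, 519.6 ± 169, 244 ± 70.2, 303 ± 48 and 486 ± 142 CPM. Trf, the iron carrier transferrin, averaged 735 ± 323, 294 ± 58.2, 302 ± 129 and 696 ± 307 CPM, and shares an identical stretch of 1517 bases with the annotated gene Gm20425. Summed with that copy, Trf had an interaction of 2.47 ± 0.60 (edgeR adjusted p = 0.253). Itgav, an integrin subunit that binds matrix, averaged 411 ± 47.5, 230.2 ± 72.1, 312 ± 11.8 and 360.2 ± 57.7 CPM, and Il6st, the shared signalling receptor of interleukin 6 cytokines, 361 ± 67.5, 249 ± 40.2, 214 ± 46.9 and 320.1 ± 23.7 CPM. The interactions of Chil3, C3, Mrc1, Axl, Trf, Itgav and Il6st were 4.60 ± 1.41, 2.80 ± 0.85, 2.31 ± 0.68, 1.77 ± 0.45, 2.53 ± 0.62, 1.04 ± 0.33 and 1.11 ± 0.30. Those with a negative interaction included ribosomal protein genes. Rps19 averaged 228 ± 38.7, 423 ± 102, 353 ± 95.5 and 291 ± 28.9 CPM and Rpl18 226 ± 43.9, 434 ± 109.7, 345 ± 74.8 and 278 ± 24.4 CPM, with interactions of -1.17 ± 0.35 and -1.25 ± 0.34.

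Gene lists were next read as counts of members and medians, beside 7.14% of all genes at an unadjusted p under 0.05 with a positive interaction, 5.52% with a negative one and the median of -0.07. No member of the lists passed the adjusted threshold, and the smallest edgeR adjusted p among them was 0.252. Beside a list's median, the range is over the 12 fits that each leave out 1 library, and the value with the Xist covariate is given where it moved the median by over 1.5 times or turned its sign. Where a list's members are counted by the group that stood apart, the shares over all genes given above are the background. The largest of those shares was that of untreated wild-type, at 30.18%. The plot of list medians gives the gemcitabine effect of each list in both genotypes.

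**Figure D5:**
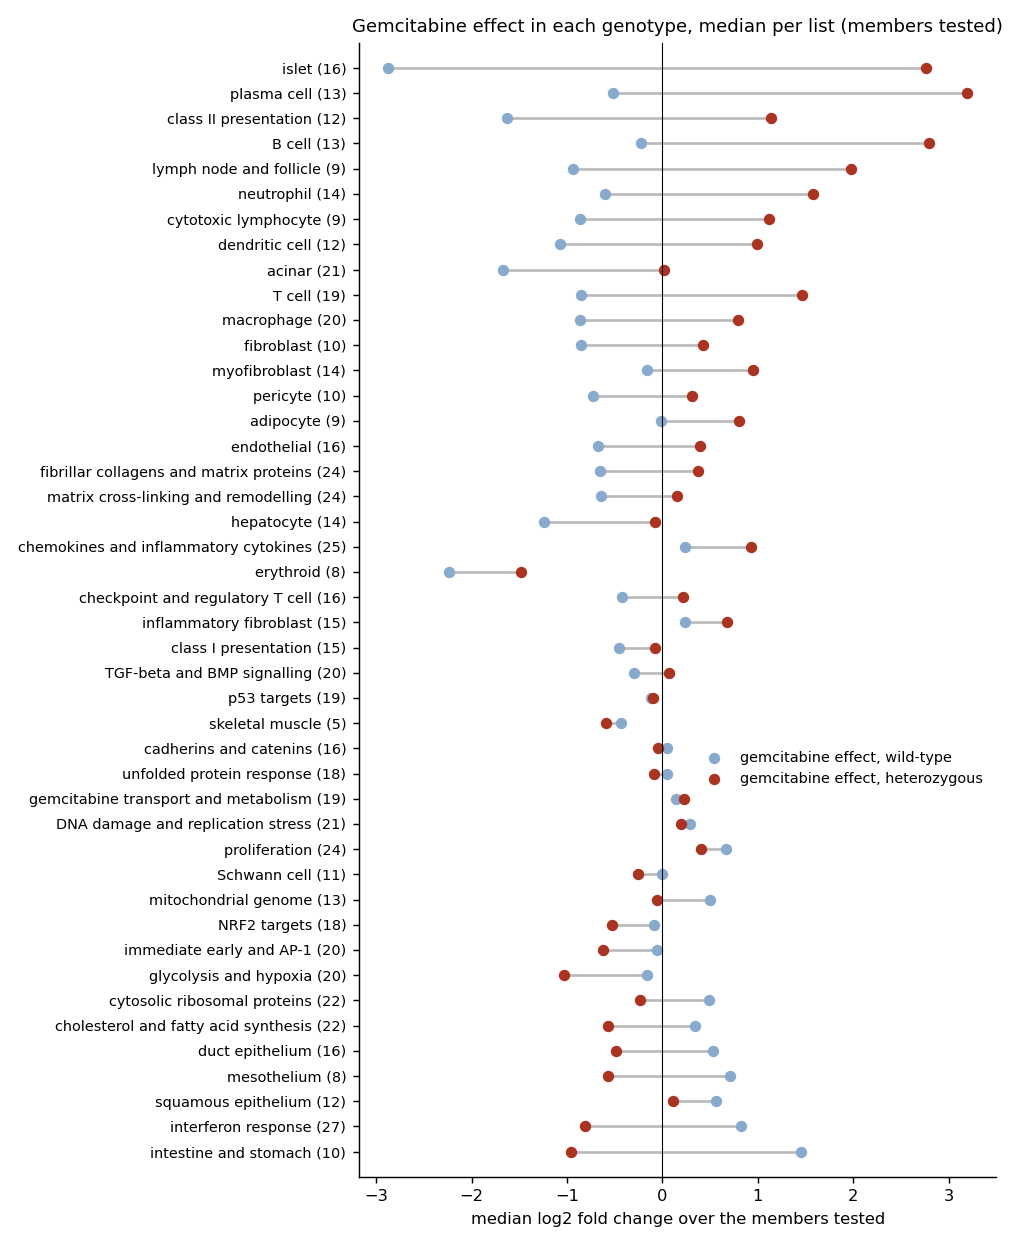
Median log2 fold change with gemcitabine over the tested members of each of 44 gene lists (y axis, number of members in brackets), in wild-type and heterozygous mice. Islet, plasma cell and B cell lists had the largest positive gaps between genotypes among the 44 lists, and macrophage and fibroblast lists had medians of opposite sign in the 2 genotypes.

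The fibroblast, matrix and myofibroblast lists had positive interactions in most or all members. All 10 fibroblast markers were positive, 6 of them at an unadjusted p under 0.05, with a median of 1.37 (-0.85 in wild-type, 0.42 in heterozygous). Untreated wild-type was the group that stood apart in all 10. Their summed level ranged over 5350.0 to 7669.9 CPM in untreated wild-type, 1486 to 2982 in untreated heterozygous, 2423 to 5772 in treated wild-type and 1276 to 3276 in treated heterozygous libraries. Lum, the collagen-binding proteoglycan lumican, was at 209, 175 and 178 CPM in untreated wild-type, 41, 61.8 and 49.4 in untreated heterozygous, 117, 53.9 and 60.6 in treated wild-type and 117, 79.8 and 65.3 in treated heterozygous libraries (interaction 2.06 ± 0.44). Mfap5, a microfibril protein, averaged 108 ± 13, 54.1 ± 20.7, 60.2 ± 6.75 and 76.1 ± 20.6 CPM, and Fap, a protease of activated fibroblasts, 23.6 ± 8.52, 7.37 ± 2.91, 6.96 ± 2.27 and 8.17 ± 2.97 CPM. For Fap (interaction 1.91 ± 0.58) the genotypes lay apart in untreated mice, and the treated means were close to each other. The fibroblast count stayed within 1.5 times under each alternative and with any 1 library left out.

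All 24 fibrillar collagens and matrix proteins were positive, with a median of 0.94 (-0.66 in wild-type, 0.37 in heterozygous) that ranged from 0.72 to 1.40 with 1 library left out. The count at an unadjusted p under 0.05 was 6 and less stable. It was 2 without WU2, HU3 or WG3, 3 without HU1, WG2 or HG1, 10 without HU2, 13 without WG1 and 3 with the Xist covariate. Untreated wild-type stood apart in 19 of the 24. Summed levels were 33983, 37758 and 49138 CPM in untreated wild-type, 20986, 23871 and 10055 in untreated heterozygous, 37348, 20089 and 18503 in treated wild-type and 32444, 20779.7 and 20725 in treated heterozygous libraries. WG1 thus lay in the untreated wild-type range and the other treated wild-type libraries did not. Thbs1, the matricellular protein thrombospondin 1, averaged 1776 ± 565, 1142 ± 533, 882 ± 143 and 1793 ± 649 CPM, and Bgn, the proteoglycan biglycan, 1178 ± 167, 614 ± 204, 566 ± 213 and 692 ± 278 CPM (interactions 1.66 ± 0.55 and 1.23 ± 0.52).

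Of 24 genes of matrix cross-linking and remodelling, 21 were positive and 8 reached the unadjusted p (13 without HU2), with a median of 0.90 (-0.64 in wild-type, 0.15 in heterozygous) that ranged from 0.73 without HG1 to 1.53 without HU2. Secreted proteases were among its members with the smallest p-values. Mmp13, a collagenase, was at 17.1, 32.9 and 281 CPM, 4.17, 2.79 and 2.78 CPM, 8.48, 4.76 and 3.19 CPM and 102, 23 and 2.87 CPM in the 4 groups (interaction 8.04 ± 1.78). The level of Mmp13 in WU3 and HG1 was far above that of the other mice of those groups. The stromelysins Mmp3 and Mmp10 averaged 19.3 ± 13.6, 5.99 ± 3.68, 3.78 ± 2.84 and 20.3 ± 18.4 CPM and 14 ± 10.6, 1.79 ± 0.584, 4.7 ± 1.75 and 4.7 ± 2.06 CPM (interactions 4.11 ± 1.12 and 2.97 ± 0.78).

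Contractile genes of myofibroblasts had a median gemcitabine effect near 0 in wild-type mice and above 0 in heterozygous mice. Of 14, 13 were positive and 6 reached the unadjusted p (3 without HG1), with a median of 1.20 (-0.16 in wild-type, 0.95 in heterozygous), and untreated heterozygous stood apart in 9. Mylk, myosin light chain kinase, averaged 179 ± 29.3, 67.3 ± 6.59, 96.5 ± 44.3 and 117 ± 1.33 CPM (interaction 1.69 ± 0.38), and it passed the adjusted threshold without WG1 (edgeR adjusted p = 0.0494). Tagln and Acta2, actin-binding and actin genes of smooth muscle, averaged 131 ± 35.1, 56.5 ± 16.2, 89.1 ± 25.3 and 120.3 ± 31.6 CPM and 172 ± 49.1, 69.4 ± 18.7, 149 ± 53.8 and 166 ± 51.2 CPM (interactions 1.64 ± 0.44 and 1.47 ± 0.48). Among TGF-beta and BMP signalling genes, which drive matrix production, 13 of 20 were positive and 4 reached the unadjusted p, with a median of 0.22 (-0.30 in wild-type, 0.07 in heterozygous) that ranged from -0.0022 without HU3 to 0.68 without HU2. Those 4 included both receptor subunits Tgfbr1 and Tgfbr2, at 249.7 ± 26.5, 141 ± 14.3, 155 ± 39.6 and 204 ± 61.5 CPM and 329 ± 56.4, 166 ± 51.7, 208 ± 27.2 and 213 ± 51.9 CPM, and the target Tgfbi at 166 ± 77.1, 94.6 ± 19.5, 79.7 ± 38.7 and 166 ± 31.9 CPM (interactions 1.22 ± 0.36, 1.03 ± 0.38 and 1.87 ± 0.54). The inflammatory fibroblast list had 11 of 15 positive and a median of 0.36 that ranged from -0.14 without WU2 to 1.13 without WG2, and -0.22 with the Xist covariate. Its 2 members at the unadjusted p (4 without HU2 or WG1) were C3 and the chemokine Cxcl12, at 47.8 ± 27.9, 15.5 ± 4.94, 15.6 ± 9.56 and 32.9 ± 15.4 CPM (interaction 2.70 ± 0.82).

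Vascular lists had interactions of the same sign. All 16 endothelial genes were positive and 7 reached the unadjusted p, with 4 without WU2, without HG2 or with the Xist covariate, and a median of 0.94 (-0.68 in wild-type, 0.39 in heterozygous). Cdh5, the cadherin of endothelial junctions, was at 75.9, 97.9 and 97.8 CPM, 44.1, 51.2 and 34.8 CPM, 66.5, 57.6 and 53.6 CPM and 56.5, 76.8 and 57.3 CPM in the 4 groups (interaction 1.16 ± 0.28). Eng, a TGF-beta co-receptor of endothelium, averaged 101 ± 34.2, 41.4 ± 5.64, 54.6 ± 10.8 and 71.2 ± 10.2 CPM, and Erg, an endothelial transcription factor, 11.2 ± 3.02, 5.4 ± 1.18, 6.6 ± 1.95 and 9.74 ± 1.84 CPM (interactions 1.66 ± 0.35 and 1.62 ± 0.43). Of 10 pericyte genes, 9 were positive and 3 reached the unadjusted p, with a median of 1.09 (-0.73 in wild-type, 0.31 in heterozygous) that ranged from 0.46 without WU2 to 1.31 without HU1. Pdgfrb, the receptor that recruits pericytes, averaged 220.1 ± 89.3, 98.4 ± 24.1, 121 ± 42.3 and 147 ± 17.4 CPM (interaction 1.45 ± 0.45). The 16 cadherins and catenins, the family of Cdh11, had a median of -0.06 (from -0.51 without HG1 to 0.056 without HG2, and 0.054 with the Xist covariate). Cdh5 was the 1 member positive at the unadjusted p (2 without HU1, HU3 or HG3), and the epithelial Cdh1 and the plakophilin Pkp3 the 2 negative (4 without HU3, 1 without WU2, HU1, HU2, WG2, WG3, HG1 or HG3 and with the Xist covariate), at 539 ± 144, 588 ± 94.6, 815 ± 213 and 420.5 ± 39.1 CPM and 28.7 ± 15, 55.4 ± 6.29, 59.1 ± 25.3 and 44.9 ± 9.04 CPM (interactions -1.08 ± 0.35 and -1.35 ± 0.56).

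Macrophage markers were high in the untreated wild-type and treated heterozygous groups. All 20 were positive, 14 of them at an unadjusted p under 0.05, with a median of 1.68 (-0.87 in wild-type, 0.79 in heterozygous), and in all 20 the gemcitabine effects of the genotypes, and the genotype effects of the treatments, had opposite signs. The summed level was 3769, 9591 and 3999 CPM in untreated wild-type, 2682, 2272 and 1502 in untreated heterozygous, 4062, 2113 and 1814 in treated wild-type and 4253, 3749 and 8975 in treated heterozygous libraries. The highest sums were those of WU2 and HG3, and WG1 lay within the ranges of the untreated wild-type and treated heterozygous groups. Without WU2, 8 reached the unadjusted p, and with the Xist covariate 4 did, with medians of 1.11 and 1.31. Besides Mrc1 and Chil3, Siglec1, a lectin of resident macrophages, averaged 66.7 ± 33.9, 30.3 ± 6.81, 36.3 ± 21.7 and 85.9 ± 53.4 CPM (interaction 2.38 ± 0.75).

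Of 14 neutrophil genes, 13 were positive and 7 reached the unadjusted p (13 without WG2), with a median of 2.36 (-0.60 in wild-type, 1.58 in heterozygous). S100a8 and S100a9, the subunits of calprotectin, averaged 12.5 ± 6.26, 3.45 ± 1.52, 6.33 ± 2.9 and 11 ± 5.1 CPM and 14.9 ± 7.17, 3.69 ± 1.52, 7.69 ± 3.52 and 15.6 ± 14.2 CPM (interactions 2.65 ± 0.73 and 3.04 ± 0.93). All 12 dendritic cell genes were positive and 5 reached the unadjusted p, with a median of 2.04 (-1.07 in wild-type, 0.99 in heterozygous), 8 without WU1, 3 without WU2, 9 without HU3 and 1 with the Xist covariate. The dendritic cell median ranged from 1.40 without WU2 to 2.49 without HU3, and 1.23 with the Xist covariate. Zbtb46 and Batf3, transcription factors of conventional dendritic cells, averaged 18.9 ± 6.98, 10.1 ± 2.04, 10.7 ± 3.09 and 15.3 ± 3.59 CPM and 0.852 ± 0.505, 0.396 ± 0.18, 0.231 ± 0.0305 and 0.564 ± 0.165 CPM (interactions 1.41 ± 0.45 and 2.37 ± 0.76). Among 25 chemokines and inflammatory cytokines 20 were positive, 2 at the unadjusted p (4 without HG3, 1 with the Xist covariate), with a median of 0.64 (0.24 in wild-type, 0.92 in heterozygous) that ranged from 0.018 without WU2 to 1.18 without WG2, and 0.083 with the Xist covariate. Those were Cxcl14, at 159.9 ± 42.6, 66.4 ± 26.9, 48.6 ± 36.5 and 139 ± 41.3 CPM, and the myeloid growth factor Csf2, at 3.83 ± 3.82, 1.05 ± 0.723, 2.03 ± 0.326 and 4.58 ± 1.74 CPM (interactions 2.78 ± 0.71 and 3.04 ± 0.98).

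The B cell, plasma cell, and lymph node and follicle lists had larger medians than the macrophage, neutrophil and dendritic cell lists. Their summed levels were uneven among the treated heterozygous libraries. Of 13 B cell genes, 12 were positive with a median of 2.83 (-0.23 in wild-type, 2.79 in heterozygous) that ranged from 1.83 without WU2 to 4.45 without HU3, and 1.76 with the Xist covariate, and treated heterozygous stood apart in 11. The summed B cell level was 13.1, 84.6 and 17.2 CPM, 10.3, 4.99 and 39.3 CPM, 15.7, 61.4 and 10.2 CPM and 11.2, 275 and 155 CPM in the 4 groups, so HG2 and HG3 were high and HG1 was not. The count at the unadjusted p was 4, and ranged from 1 without WU2, HU1, HU2, WG1, WG3 or HG2 and 2 without HG3 to 8 without HG1 and 9 without HU3. With the Xist covariate it was 0. Of 13 plasma cell genes, 12 were positive and 7 reached the unadjusted p (2 by limma voom and 2 with the Xist covariate), with a median of 4.10 (-0.52 in wild-type, 3.20 in heterozygous). The antibody gene Ighg1 was at 0.888, 261 and 971 CPM in treated heterozygous libraries and at or below 54.2 CPM in all the others, and its group means were 20.1 ± 29.7, 10.6 ± 9.4, 1.06 ± 0.897 and 411 ± 502 CPM (interaction 9.51 ± 2.92). All 9 tested lymph node and follicle genes were positive, with a median of 2.72 (-0.94 in wild-type, 1.98 in heterozygous) that ranged from 1.38 without WU2 to 3.54 without HU3, and 1.66 with the Xist covariate, and 4 reached the unadjusted p. That count was 0 without WU2, WG2 or HG2 and with the Xist covariate, 1 without HU1, HU2 or WG3, and 2 without HG3. Their summed level was 35, 167 and 147 CPM in HG libraries, 40.0, 109 and 32.2 CPM in WU, 52.9, 47.1 and 31.9 CPM in HU and 41.1, 48.6 and 24.8 CPM in WG libraries. The part of lymphoid tissue in the B cell, plasma cell and T cell values was not tested.

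Of 19 T cell genes, 18 were positive and 3 reached the unadjusted p, with a median of 1.89 (-0.85 in wild-type, 1.46 in heterozygous) that ranged from 1.42 without HG2 to 2.94 without HU3. The count was 1 without WU2 or HG3 and with the Xist covariate, 5 without WU1 and 11 without HU3 or HG1. Zap70, a kinase of the T cell receptor, was at 0.529, 0.899 and 0.868 CPM, 0.527, 0.367 and 1.07 CPM, 0.415, 0.256 and 0.551 CPM and 0.646, 2.45 and 2.39 CPM in the 4 groups (interaction 2.38 ± 0.82). The co-stimulatory receptor Cd28 averaged 0.513 ± 0.256, 0.864 ± 0.412, 0.293 ± 0.0582 and 2.97 ± 2.11 CPM (interaction 2.58 ± 0.95). Treated heterozygous stood apart in 12 of the 19. Of 9 tested genes of cytotoxic lymphocytes, 8 were positive, 2 at the unadjusted p (1 without WU2 and with the Xist covariate), with a median of 2.15 that ranged from 0.67 without WU2 to 3.20 without HU3, and 0.16 with the Xist covariate. Perforin (Prf1) averaged 1.2 ± 1.36, 0.145 ± 0.0979, 0.13 ± 0.0138 and 0.654 ± 0.449 CPM (interaction 5.32 ± 1.42). Of 16 genes of checkpoints and regulatory T cells, 11 were positive, with a median of 0.56 that ranged from 0.43 without WU2 to 0.73 without WU3, and 0.28 with the Xist covariate. The ectonucleotidase Entpd1 averaged 43.8 ± 14.6, 27.6 ± 4.72, 25.9 ± 5.86 and 39.8 ± 4.84 CPM, with no overlap between the 2 sets of 6 libraries (interaction 1.29 ± 0.37).

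Class II presentation, by which antigen-presenting cells show peptides to helper T cells, had 1 of the larger medians. All 12 class II presentation genes were positive, with a median of 2.90 (-1.63 in wild-type, 1.14 in heterozygous), and 5 reached the unadjusted p. That count kept within 1.5 times only without WU3 or WG1. It was 2 without WU2, HU1, HU2, WG2 or HG2, 3 without WG3 or HG3, 8 without HG1, 10 without WU1, 11 without HU3 and 2 with the Xist covariate, and the median ranged from 1.21 without WU2 to 3.81 without HU3, and 1.15 with the Xist covariate. Ctss, the protease that processes the class II invariant chain, averaged 364 ± 222, 200.3 ± 51.5, 167 ± 68.4 and 391 ± 114 CPM, and H2-DMb1, a chain of the peptide loading protein, 21.6 ± 22.9, 16.7 ± 7.58, 6.39 ± 2.58 and 29 ± 15.8 CPM (interactions 2.09 ± 0.60 and 2.56 ± 1.04). Of 15 class I presentation genes 11 were positive and 0 reached the unadjusted p by edgeR or DESeq2 (by edgeR 5 positive without HU3 and 1 negative with the Xist covariate), with a median of 0.36 that ranged from -0.011 without WU2 to 0.86 without HU3, and -0.22 with the Xist covariate. Psmb8, an immunoproteasome subunit, averaged 14 ± 9.55, 14.1 ± 10.6, 7.72 ± 2.4 and 19.3 ± 4.85 CPM, and the class I heavy chain H2-K1 92.3 ± 39, 263 ± 173, 80.7 ± 13.6 and 139 ± 38.5 CPM (interactions 1.32 ± 0.80 and -0.73 ± 0.61). The difference between the 2 lists was not tested.

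Interferon response genes had the opposite sign. Of 27, 24 were negative and 9 reached the unadjusted p, with a median of -2.12 (0.82 in wild-type, -0.82 in heterozygous). The summed level was 205, 244 and 138 CPM, 242, 180.3 and 789.9 CPM, 204, 209 and 556 CPM and 218, 304 and 269.7 CPM in the 4 groups, so HU3 and WG3 were each far above the other 2 mice of their groups. Without HU3 there were 3 negative and also 3 positive members at the unadjusted p, where all libraries gave 0 positive, and without WG1 or HG1 there was 1 positive. The negative count was 2 without WG3, 4 without WU3 and 5 without HG1 or HG3, and the median ranged from -2.56 without HG2 to -0.79 without HU3. Oas3, a sensor of double-stranded RNA, was at 0.64, 0.669 and 0.335 CPM, 6.13, 2.96 and 28.6 CPM, 1.6, 3.3 and 33.4 CPM and 1.13, 6.08 and 4.03 CPM in the 4 groups (interaction -6.29 ± 1.68). Irf7, the transcription factor that amplifies interferon production, averaged 4.39 ± 1.79, 15.5 ± 11.1, 28.5 ± 35 and 8.8 ± 2.72 CPM, and the chemokine Cxcl10 0.482 ± 0.186, 2.34 ± 3.25, 7.58 ± 10.8 and 0.859 ± 0.285 CPM (interactions -3.52 ± 1.15 and -5.42 ± 1.83).

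Epithelial and metabolic lists were mostly negative. Of 16 duct epithelium genes, 14 were negative and 3 reached the unadjusted p (5 without WU3, HU3 or WG1, 6 without HU2), with a median of -1.07 (0.53 in wild-type, -0.49 in heterozygous) that ranged from -1.18 without WU3 to -0.75 without WG3, and -0.67 with the Xist covariate. The tetraspanin Tspan8 averaged 88.6 ± 17, 170.2 ± 71.3, 183 ± 55.7 and 125 ± 30.6 CPM and the mucin Muc1 76.8 ± 45.6, 217 ± 122, 229.7 ± 24.1 and 153 ± 89.9 CPM (interactions -1.50 ± 0.47 and -2.08 ± 0.80). Of 22 genes of cholesterol and fatty acid synthesis, 20 were negative and 10 reached the unadjusted p, with a median of -1.03 (0.35 in wild-type, -0.57 in heterozygous). The count was 3 without WU2 or WG2, 6 without HG1 or HG3 and 5 with the Xist covariate, and the median ranged from -1.28 without WG1 to -0.58 without WG2. Acss2, which makes acetyl-CoA from acetate, averaged 14.5 ± 2.87, 26 ± 3.31, 16.9 ± 2.76 and 12.4 ± 3.34 CPM, and the last enzyme of cholesterol synthesis, Dhcr7, 12.2 ± 3.16, 32.9 ± 10.9, 17.9 ± 6.77 and 18.2 ± 4.42 CPM. Their interactions were -1.29 ± 0.35 and -1.41 ± 0.50.

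All 20 genes of glycolysis and hypoxia were negative with a median of -0.76 (-0.16 in wild-type, -1.03 in heterozygous) that ranged from -1.58 without WU3 to -0.25 without HU2, and Car9 was the 1 at the unadjusted p (6 without WU3, 2 without HU1 or WG1). The glycolytic enzymes Pfkp and Eno1 averaged 88.7 ± 37.6, 148 ± 129, 112 ± 52.1 and 63.6 ± 15.9 CPM and 329.9 ± 259, 462 ± 206, 322 ± 79 and 224 ± 41.5 CPM (interactions -1.56 ± 0.84 and -1.01 ± 0.70). The summed level of this list ranged from 2430.1 CPM in WU2 to 9804 in WU3, within 1 group. Of 18 NRF2 targets, which answer oxidative stress, 13 were negative with a median of -0.44 that ranged from -0.61 without HG2 to -0.29 without HG3. Those at the unadjusted p were the cystine transporter Slc7a11 and the glutathione transferase Gsta4 (1 member without WG2 and with the Xist covariate), at 59.3 ± 20.3, 125 ± 34.2, 50.3 ± 22.9 and 32 ± 16 CPM and 87.3 ± 31.7, 208 ± 95.9, 194 ± 74.8 and 131 ± 45.3 CPM (interactions -1.73 ± 0.65 and -1.82 ± 0.60). The unfolded protein response was split, with 9 members positive and 9 negative and a median of -0.07 that ranged from -0.23 without WU3 to 0.24 without HU2, and -0.13 with the Xist covariate. Its 5 negative members at the unadjusted p (3 without WU1, WU2, HU2, WG1, WG3 or HG3) included amino acid stress genes, Asns at 14.2 ± 2.74, 40.1 ± 20.1, 27.6 ± 10.5 and 16.4 ± 3.47 CPM and Chac1 at 1.91 ± 0.593, 3.66 ± 1.91, 5.75 ± 3.29 and 1.6 ± 0.0991 CPM (interactions -2.24 ± 0.53 and -2.78 ± 0.69). Of 20 immediate early and AP-1 genes 14 were negative, with a median of -0.56 that ranged from -0.72 without HU1 to -0.13 without HU2. Ier2 averaged 30.0 ± 10.3, 29.6 ± 1.14, 36 ± 3.23 and 18.7 ± 1.32 CPM and Myc 57.2 ± 17.4, 86.3 ± 52.6, 113 ± 50.4 and 59.9 ± 12.2 CPM (interactions -0.93 ± 0.31 and -1.50 ± 0.62).

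Genes of the translation apparatus had interactions of nearly 1 sign. Of all 76 cytosolic ribosomal protein genes tested, 75 were negative and 24 reached the unadjusted p, with a median of -0.72 from 0.44 in wild-type and -0.31 in heterozygous mice. Rps27 averaged 191 ± 31.9, 336 ± 62.4, 265 ± 77.1 and 216 ± 13.5 CPM and Rpl34 32.5 ± 10.1, 204 ± 84.5, 49.7 ± 18.8 and 73 ± 34.5 CPM (interactions -1.11 ± 0.33 and -2.10 ± 0.63). In the shorter list of 22, 8 reached the unadjusted p, 5 without WU1, WU2, HU1 or HG3, 3 without HU3, WG2 or HG1 and 2 with the Xist covariate. Of 178 small nucleolar RNAs, which guide modification of ribosomal RNA, 159 were negative and 76 reached the unadjusted p, with a median of -1.22. Of the 13 tested genes of the mitochondrial genome all were negative, 3 at the unadjusted p (1 without WU3, HU1, WG1, WG2 or HG3 and with the Xist covariate), with a median of -0.41, and mt-Cytb averaged 492 ± 27.4, 765 ± 137, 695 ± 145 and 651 ± 8.31 CPM (interaction -0.73 ± 0.29). Untreated wild-type stood apart in 15 of the 22 listed ribosomal protein genes and 10 of the 13 mitochondrial genes, and the lowest share of 7SL and 7SK RNA was also that of a WU library. With protein-coding genes in 5 classes by transcript length, the median interaction went from -0.14 in the shortest class to 0.04 in the longest, and in 5 classes by GC content from 0.02 in the lowest to -0.15 in the highest. The share of counts on protein-coding genes, given above, was higher in all WU and HG than in all HU and WG libraries, and the part of library composition in these differences was not tested.

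Genes that handle the drug or answer DNA damage had interactions near those of all genes. Of 19 genes of gemcitabine transport and metabolism, 8 were positive and 11 negative, with a median of -0.13 that ranged from -0.26 without HU1 to 0.17 without WG2, and -0.27 with the Xist covariate. Cda, the deaminase that inactivates gemcitabine, was at 11.7, 6.99 and 21.2 CPM in untreated wild-type, 3.27, 8.7 and 2.42 in untreated heterozygous, 5.03, 7.39 and 4.8 in treated wild-type and 9.37, 10.1 and 7.08 in treated heterozygous libraries (interaction 2.09 ± 0.71, edgeR adjusted p = 0.286). Samhd1, which hydrolyses deoxynucleotides, averaged 80.0 ± 25.6, 57.8 ± 14.4, 55.2 ± 8.54 and 85.3 ± 16.7 CPM, and Nt5c3, a nucleotidase of pyrimidine monophosphates, 28.6 ± 6.63, 40.5 ± 13.4, 35.1 ± 3.43 and 27.2 ± 5.04 CPM (interactions 1.10 ± 0.39 and -0.88 ± 0.38). These 3 were the members at the unadjusted p, and the count of negative members was 0 without WU2, WU3, HU3, WG2, WG3, HG1 or HG3, 2 without HU2 and 3 without WG1. With the Xist covariate 1 positive and 0 negative members reached it by edgeR. Of 21 genes of DNA damage and replication stress 0 reached it by edgeR or DESeq2 (1 by edgeR without HU2), with a median of -0.26 that ranged from -0.45 without WG3 to 0.23 without HU3. The phosphatase Cdc25a averaged 22.3 ± 5.28, 35.7 ± 24, 27.3 ± 2.87 and 21.2 ± 5.08 CPM (interaction -1.04 ± 0.58). Of 24 proliferation genes 0 reached it by edgeR or DESeq2 (1 by edgeR without HU2 or HG2), with a median of -0.29 that ranged from -0.72 without HG2 to 0.62 without HU3, and -0.54 with the Xist covariate. The thymidine kinase Tk1 averaged 19.3 ± 2.64, 28.2 ± 6.12, 31.8 ± 9.66 and 30.5 ± 5.72 CPM and the mitotic kinase Plk1 7.4 ± 1.06, 15.4 ± 9.91, 16.6 ± 9.85 and 12.6 ± 8.82 CPM (interactions -0.61 ± 0.36 and -1.45 ± 0.90). Of 19 p53 targets 0 reached it by edgeR or DESeq2 (1 by limma voom, and by edgeR 1 without WU3, HU1, HU2, WG1 or WG3 and 2 without WU2 or HU3). With the Xist covariate 1 positive and 2 negative p53 targets reached it. Their median was 0.02 and ranged from -0.22 without HU3 to 0.35 without HU2, and -0.11 with the Xist covariate. Aen, a nuclease, averaged 27.5 ± 8.11, 36.8 ± 5.15, 43.4 ± 7.4 and 35.4 ± 4.61 CPM and Bbc3, the apoptosis gene Puma, 6.04 ± 1.45, 6.01 ± 2.31, 5.55 ± 0.738 and 2.78 ± 0.638 CPM (interactions -0.71 ± 0.33 and -0.99 ± 0.49).

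Islet, acinar, intestine and stomach, and hepatocyte marker lists held some of the largest interactions. Whether tumour cells or other tissue gave these counts was not tested. All 16 islet genes were positive and 13 reached the unadjusted p (8 without WU2, 5 with the Xist covariate), with a median of 5.61 (-2.88 in wild-type, 2.76 in heterozygous). Iapp, the peptide amylin of beta cells, was at 1.19, 25.8 and 5.19 CPM, 0.154, 0.108 and 0.0199 CPM, 0.809, 0.0232 and 0.12 CPM and 1.39, 5.71 and 0.12 CPM in the 4 groups, and the untreated heterozygous libraries had no Ins1 count. Summed islet markers were 30.7, 336 and 86.2 CPM in WU and 8.41, 8.72 and 5.92 CPM in HU libraries, 40.8, 3.49 and 5.37 CPM in WG and 19.9, 102 and 11 CPM in HG libraries. Of 21 acinar genes 17 were positive and 0 reached the unadjusted p by edgeR, 1 by DESeq2 (by edgeR 4 without WG1 and 1 without WU1, WU3 or WG3 and with the Xist covariate). Their median was 2.03, or 1.83 with the 8 genes at 0 in a whole group placed at their bound, and ranged from 1.42 without HG2 to 4.74 without WG1, and 3.31 with the Xist covariate. Of 10 intestine and stomach genes 9 were negative and 7 reached the unadjusted p, with a median of -3.56 that ranged from -3.88 without WG2 to -2.05 without WG1. That count was 3 or 4 without WU1, WU2, WU3, HU1, WG1, HG2 or HG3, and 4 with the Xist covariate, and villin (Vil1) averaged 38.8 ± 5.95, 74.8 ± 6.18, 101 ± 50.5 and 65.7 ± 13.5 CPM (interaction -1.57 ± 0.46). Of 14 hepatocyte genes 9 were positive with a median of 0.78 that ranged from 0.066 without WU1 to 2.36 without HU3. Of these 14, 3 positive and 1 negative reached the unadjusted p, and haptoglobin (Hp) averaged 127 ± 95.4, 33.8 ± 26.4, 38.4 ± 16.3 and 99.3 ± 44.9 CPM (interaction 3.28 ± 0.95). The part of islet, acinar, intestinal, gastric or liver tissue in the results on stromal, immune and epithelial genes was not tested. A fit with the acinar level as a covariate was the exception, and in it 2905 genes reached the unadjusted p.

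The other marker lists were short and mixed in sign. Of 12 squamous epithelium genes 8 were negative with a median of -1.70 that ranged from -2.21 without HU3 to -0.35 without HU2, and -0.81 with the Xist covariate, though its 2 members at the unadjusted p (without WU3 1 positive and 1 negative), Krt17 and Dsc3, were positive, at 4.33 ± 2.93, 0.0878 ± 0.152, 0.357 ± 0.373 and 0.385 ± 0.353 CPM and 0.0849 ± 0.0377, 0.123 ± 0.102, 0.098 ± 0.0759 and 2.97 ± 2.47 CPM (interactions 5.69 ± 1.75 and 4.35 ± 1.63). Of 9 adipocyte genes 6 were positive with a median of 0.97 that ranged from -0.44 without HG3 to 1.90 without WG2, and Pparg, the transcription factor of fat storage, was negative at 23.3 ± 7.01, 45.3 ± 17.3, 36.5 ± 6.71 and 17.9 ± 7.89 CPM (interaction -1.99 ± 0.54). The median was -1.28 over 8 mesothelium genes (from -1.60 without HU3 to -0.62 without HU2) and -0.30 over 11 Schwann cell genes (from -0.50 without WG2 to -0.0062 without HU3). It was 0.60 over 8 erythroid genes (from -0.02 without HG3 to 2.17 without HU2, and 0.26 with the Xist covariate) and 0.01 over 5 skeletal muscle genes (from -0.66 without WU3 to 0.31 without WU2, and 0.39 with the Xist covariate). In the Schwann cell list the sodium channel Scn7a alone reached the unadjusted p (2 members without HU3 or WG1), at 70.6 ± 39.2, 13.6 ± 7.84, 12.2 ± 4.76 and 22.3 ± 8.62 CPM (interaction 3.24 ± 0.79).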

How the data were processed

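Total RNA of 12 tumours was sequenced after ribosomal RNA depletion with stranded libraries, per the labels' protocols. The authors deposited expected counts per gene, made with RSEM on GRCm38 per the submitters' processing notes, and all values were whole numbers. The sources used here do not name the aligner, the RSEM version, the annotation or the strand setting. Symbols and positions came from GENCODE M21 by gene ID for 52403 of 52636 genes, and the 233 without a symbol held 0.0721% of the counts.

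Genes were filtered with filterByExpr over the 4 groups (24065 kept), normalized by TMM (factors 0.897 to 1.09) and fitted with edgeR 4.0.16 in R 4.3.3 (robust quasi-likelihood, 1 coefficient per group, all 12 libraries, 8 residual degrees of freedom). The interaction was tested in every gene with Benjamini-Hochberg adjustment over all of them. The value after ± beside an interaction is an SE, taken as its size divided by the square root of the test's F statistic. The common biological coefficient of variation was 46.4%. A p-value sets the interaction against the spread between mice within groups, estimated over all 12 libraries with information shared across genes. The series' design text states 3 mice per group.

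The genes named were Cdh11, the 12 with the smallest p-values in each direction, the 10 most abundant at an unadjusted p under 0.01 and up to 3 of each list, leaving out predicted genes, clones and the like. Some genes that the rule names are not reported here. The 45 lists and all members were chosen with earlier results of these data known. The group that stood apart is the one whose mean log2 CPM differed most from the mean of the other 3. Near-identical copies were sought with blastn 2.17.0 (identity of at least 95% over at least 50% of the transcript).

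Alternatives were DESeq2 1.42.0, limma 3.58.1 (voom), other scalings and filters, each library left out in turn, a replicate block, and the acinar level or the Xist state as a covariate. The Xist state is whether Xist exceeded the summed Y-linked genes in a library. On simulated counts of 24065 genes, the interaction test recovered 2% of 50 genes changed 2-fold, 20% of 50 changed 4-fold, 70% of 50 changed 8-fold and 80% of 50 changed 16-fold, and 3.37% of calls were false. The changed genes averaged above 50 counts and were changed in the treated heterozygous group only. Recovery at lower counts was not tested.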

Additional observations from a re-analysis of the deposited data

Results flagged for a closer look

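In Gm10260 and BC023719 the gemcitabine effect differed between the genotypes by the interaction test over all genes, by 5.82 and 9.65 on the log2 scale (edgeR adjusted p = 0.00480 for both). Both are near 0 or at 0 in all 3 untreated heterozygous libraries and present in all 9 others, and in both the call was lost when the counts of near-identical copies were added. For BC023719 that loss follows from the sum, as its copy averaged no more in untreated heterozygous than in untreated wild-type libraries.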

How the results depend on the processing

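The count of genes past the adjusted threshold, 2 by edgeR, was 656 by DESeq2 and 1 by limma voom, where BC023719 did not pass (7.64, adjusted p = 0.0889), and the cause was not tested. Of the 107 genes named with an interaction, DESeq2 called 64, against 2 by edgeR. Over all genes tested DESeq2 called 656 of 24065. Most of the 107 were chosen by a small interaction p in these same libraries, which favours a call, so their share is a description only. With 1 library left out the count over all genes ranged from 2 to 7. The same 2 genes were called in every fit except limma voom, which called Gm10260 alone, and fits with summed copies. Summed with its copies, Gm10260 had an interaction of -0.87 (edgeR adjusted p = 0.507) and BC023719 of 0.58 (edgeR adjusted p = 0.697). For BC023719 the lower value follows from construction of the summed feature. In the Gm10260 family, Rps18 averaged 573 CPM in untreated heterozygous and 112 CPM in untreated wild-type libraries. The count at an unadjusted p under 0.05 was 1730 with the Xist covariate in place of 3046, and the cause was not tested. With 1 library left out it ranged from 2206 to 3513. The interaction of Cdh11 lay between 0.70 and 1.23 in all settings and never passed. Residuals of libraries with the same replicate number had correlations between -0.25 and 0.17. Libraries with different numbers were not compared, so these values do not decide whether the numbers pair the mice. With the replicate block the same 2 genes passed, and 2548 reached the unadjusted p. Examples of list counts that moved at an unadjusted p under 0.05 were by DESeq2 for class II presentation (11 in place of 5), dendritic cell (8 in place of 5), B cell (7 in place of 4), T cell (6 in place of 3) and duct epithelium (6 in place of 3), and by limma voom for plasma cell (2 in place of 7), interferon response (4 in place of 9) and intestine and stomach (3 in place of 7). With the replicate block the counts were 1 for class II presentation, 1 for B cell, 0 for lymph node and follicle, 2 for interferon response and 5 for cholesterol and fatty acid synthesis. Depth was not varied, and the number of mice was varied only by leaving out 1 library at a time. Every library held at least 39388328 counts, and in simulations of this design 20% of 4-fold interactions were recovered.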
